A study of Mus musculus with 47 samples.

Results

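The genes described here belong to the Notch pathway, the Hes family and the Id family, and were measured in P19 cells, which derive from a mouse embryonal carcinoma and turn into neurons when given retinoic acid. They were chosen by name: the ligands Dll1, Dll3 and Jag1, the receptor Notch1, the transcriptional repressors Hes1, Hes5 and Hes6, and the inhibitor proteins Id1, Id2 and Id3. All 10 genes had a 3′ UTR row, 1 RefSeq transcript each, out of 18850 genes with a symbol in the deposited tables. SLAM-seq was run on wild-type cells in 2 states with 2 assays, which gave 47 libraries. In SLAM-seq, cells build 4-thiouridine (4sU) into new RNA, and the sequencer reads C at a labeled T once the RNA has been alkylated. A T-to-C conversion thus marks a transcript made during labeling.

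Undifferentiated cells (D0) were kept in serum medium. Cells at day 6 (D6) had grown in NDiff 227 medium with 500 nM retinoic acid on poly-L-lysine, so that the states differed in medium as well as in time. The 4sU dose was 20 µM at D0 and 500 µM at D6. In the catabolic assay, cells were labeled for 15 h and the loss of label was followed after 4sU was removed. The methods also give another length for this labeling where they describe the normalization, and 15 h is used here as a name for the rate at 0 h of this assay. In the anabolic assay, the uptake of label was followed after 4sU was added. Each state and assay had 4 collection points with 3 libraries each, but only 2 libraries stood for D6 at the third catabolic point. The sample labels give these points as 0, 1, 3 and 9 h, whereas the study's design and methods give 0, 3, 6 and 9 h, so that the middle points are called the second and the third point here. The study describes its replicates as biological, but the labels do not say which libraries came from separate cultures, so that p-values measure the spread between these libraries, which may be partly technical. All of the RNA was bulk RNA, in which fewer cells of a type and less RNA per cell cannot be told apart.

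In Notch signaling, a ligand of the Delta or Jagged type on one cell binds a Notch receptor on its neighbor, and the receptor is cleaved so that its intracellular part enters the nucleus and works with the DNA-binding protein RBPJ. Hes1 and Hes5, classical targets of this complex, encode basic helix-loop-helix repressors that hold back proneural genes and keep neural progenitors undifferentiated, whereas Hes6 is known to oppose Hes1 and to favor neuronal differentiation. Id proteins are helix-loop-helix proteins without a DNA-binding region, which bind E proteins and keep them from DNA, and they are well-known targets of BMP signaling.

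The 3′ UTRs that were counted are all 3′ UTR in the GENCODE M21 annotation of GRCm38 (mm10). They lie at chr17:15367354-15368029 for Dll1, chr7:28293555-28293920 for Dll3, chr2:137081451-137083023 for Jag1 and chr2:26457902-26459530 for Notch1. Those of the repressors lie at chr16:30067429-30067796 for Hes1, chr4:154961676-154962371 for Hes5 and chr1:91411483-91412057 for Hes6. Those of the Id genes lie at chr2:152737014-152737410 for Id1, chr12:25093799-25094576 for Id2 and chr4:136144880-136145392 for Id3. Transcripts of the opposite strand overlap the 3′ UTR of Hes5 (Gm20421) and of Notch1 (0610009E02Rik and Gm13568). Whether the counting used the strand is not given in the sources used here, and the reads of these partners cannot be told apart from those of Hes5 and Notch1.

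Sequences of 2 kinds are shown for reference. Whether they bear on the level of a gene or on its loss of label was not tested. The first is the core of the RBPJ motif, searched as GTGGGAA on both strands in promoters of 300 bases (RefSeq, GRCm38.p6). Of the 10 genes, 8 had a promoter in this set (Hes1 and Id1 did not), and of these only Hes5 held the letters, at 2 places, whereas 6.38% of 32851 promoters held them. The shorter TGGGAA, searched as well, was held by Hes5 only, against 25.6% of all promoters. GGCGCC, a BMP-responsive element, was found 4 times in Hes5 and 1 time in Id2 and in 1 Dll1 promoter, against 11.9% of all promoters. The capitals mark the core, which lies in reverse in the second line. Their positions on the plus strand are chr4:154960830-154960856 and chr4:154960687-154960713.
Hes5 promoter site nearer to the start: gccgccgagtGTGGGAAcggccgcggc
Hes5 promoter site farther from the start: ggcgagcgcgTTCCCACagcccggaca

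The second kind is a pair of motifs known from unstable mRNAs, the AU-rich heptamer TATTTAT and the Pumilio motif TGTANATA, searched on the transcribed strand of the counted 3′ UTRs (GENCODE M21, GRCm38). The heptamer was found once in Dll1 and Dll3, 2 times in Id2, 4 times in Notch1 and 5 times in Jag1, and was not found in Hes1, Hes5, Hes6, Id1 or Id3. The Pumilio motif was found once each in Hes1, Dll1, Dll3, Notch1, Jag1 and Id2. Within the last 350 bases, 11.4% of 15934 3′ UTRs held the heptamer and 10.4% the Pumilio motif, and 4 of the 10 genes held each (Dll1, Dll3, Jag1 and Id2 the heptamer, and Hes1, Dll1, Dll3 and Id2 the Pumilio motif). The shorter AU-rich pentamer ATTTA, searched as well, was held there by 49.3% of 3′ UTRs and by the same genes as the heptamer. Capitals mark the motif in some of these sites, in Id2, Dll1, Jag1 and Hes1. The sites of Notch1 and Dll3 and the other sites of Dll1 and Jag1 are not printed. Loss of label at D6, described below, was called for the genes printed and not for Notch1 or Dll3. The printed sites lie at chr12:25094357-25094381, chr12:25094108-25094132, chr12:25094113-25094138, chr17:15367443-15367467, chr2:137081470-137081494 and chr16:30067604-30067629, on the minus strand apart from the last. The second line and the line after it overlap each other.
Id2 heptamer, first: tgataccgtTATTTATgagagactt
Id2 heptamer, second: ctgtgtataTATTTATatataaata
Id2 Pumilio motif: tgaatgctgTGTATATAtttatatat
Dll1 heptamer: atataaatgTATTTATggaatattg
Jag1 heptamer nearest to the end: gaaaagtaaTATTTATtaaattttt
Hes1 Pumilio motif: cactgcattTGTATATAttttatatg

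The reads on distinct 3′ UTRs ranged from 3447888 to 11677046 in the 24 libraries of D0 and from 1489528 to 7930149 in the 23 of D6. Levels are given as RPM, which scales the reads of a library to a common normalized library size and takes no account of gene length, so that a gene can be compared between libraries but not with another gene. Marker genes followed the labels in the libraries without 4sU. Of 10 neuronal markers, 9 were higher at D6 (Map2 by a log2 of 5.25 ± 0.34 SE), and of 8 markers of undifferentiated carcinoma cells, 4 could be tested and 3 were lower (Pou5f1, Utf1 and Tdgf1), with Sox2 not called (-0.37). Of these 8, Zfp42 and Dppa5a were listed at 0 in all 6 libraries without 4sU. The summed level of the neuronal markers was 412 to 462 RPM at D0 and 6714 to 7249 at D6, and that of the 6 markers of neural progenitors, Hes5 among them, was 361 to 774 and 1710 to 1864, with 2 called higher (Hes5 and Fabp7). Of 7 glial markers, 5 were listed at 0 in these libraries (Aqp4, S100b, Aldh1l1, Olig1 and Olig2). Of 8 markers of mesoderm and endoderm, 4 were listed at 0 (Gata4, Sox17, Foxa2 and Afp), and 1 of the 2 that could be tested, Acta2, was lower at D6. 

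At D0, 2 libraries stood apart in several of the genes. In library 56 (without 4sU), Hes1 had 2.2 RPM against 31.6 and 39.6 in the other libraries of the group, Jag1 had 3.85 against 27.7 and 36.4, and Id3 had 43.4 against 160 and 195. Notch1 was high in the same library, at 20.2 against 4.80 and 3.35. In library 26 (0 h of the catabolic assay), Hes1 had 9.29 RPM against 33.8 and 35.1, Jag1 5.98 against 16.3 and 22.6, and Id3 27.9 against 148 and 75.5, and Notch1 had 4.72 against 0.170 and 0.390. At D6, library 38 (without 4sU) was low in several genes, with Hes1 at 7.91 RPM against 16.9 and 43, Id1 at 1.25 against 33.8 and 13.0, Dll1 at 1.66 against 14 and 16.3 and Id3 at 85.3 against 195 and 215. Libraries 56, 38 and 26 had the highest conversion rates over all transcripts within their groups (0.207% against 0.160 and 0.144%, 0.190% against 0.171 and 0.136%, and 1.49% against 1.39 and 1.38%), as had library 72 at 9 h of the anabolic assay (1.297% against 1.22 and 1.21%). The part of these differences in the results was not tested, and values without these libraries are given beside the results they move.

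The first comparison asked how the amount of each transcript differed between the states in cells that had not received 4sU. Of the 10 genes, Hes5, Hes6 and Notch1 were higher at D6 and Id1 was lower, by edgeR's quasi-likelihood test with Benjamini-Hochberg adjustment over 16091 transcripts. Of all transcripts, 7.74% were called higher and 5.4% lower, 13.1% in all. The median log2 difference was 0.83 over the 10 genes and -0.04 over all transcripts tested.

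Hes5 differed most among the 10 genes. Without 4sU, it had 0.554, 0.412 and 0.689 RPM at D0, from 6, 3 and 7 reads, and 581, 611 and 432 at D6. No library of one state came near those of the other. Its log2 difference was 9.83 ± 0.39 SE, a 911-fold higher level at D6 (adjusted p = 4.27e-07), and it was called without any 1 of the 6 libraries. Over all libraries it ranged from 0.166 to 5.05 RPM at D0 (median 0.748) and from 156 to 611 at D6 (median 301).

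Hes6 was also higher at D6, by a smaller factor. It had 36.1, 48.6 and 50.9 RPM at D0 and 98.0, 152 and 113 at D6, so that the groups did not overlap. The difference was 1.37 ± 0.35 on the log2 scale (2.58-fold, adjusted p = 0.0258). Its call held without library 56 (adjusted p = 0.0232) and was lost without any other 1 of the 6 libraries (adjusted p = 0.0506 to 0.1). Hes1, whose mRNA is known to be short-lived, had 31.6, 2.2 and 39.6 RPM at D0 and 16.9, 7.91 and 43 at D6, with full overlap. The difference was -0.13 ± 0.99 (adjusted p = 0.957), -0.67 ± 0.75 without library 56 and 0.27 ± 1.06 without library 38. The SE alone was about 1 log2 unit, so that a change larger than this in either direction is not excluded.

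Notch1 had 4.80, 20.2 and 3.35 RPM at D0 and 93.3, 60.6 and 91.3 at D6, and every D6 library exceeded every D0 library. The log2 difference was 3.05 ± 0.72 (8.27-fold, adjusted p = 0.0187), and 4.29 ± 0.53 without library 56 (adjusted p = 0.000462). Its call was lost without library 55, 37 or 39 (adjusted p = 0.054 to 0.0775).

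Of the ligands, none was called. Dll1, the main activating ligand of neural progenitors, had 2.40, 0.137 and 0 RPM at D0 and 14, 1.66 and 16.3 at D6, and 1 D6 library lay among those of D0. The log2 difference was 3.59 ± 2.06 (adjusted p = 0.328). Dll3, a divergent ligand that acts mainly within its own cell, had 0.370, 4.40 and 5.81 RPM at D0 and 16.4, 39.3 and 21.5 at D6. These groups did not overlap, but the difference of 2.81 ± 1.13 did not pass (adjusted p = 0.142; 0.0405 by DESeq2, which called 20.1% of all transcripts). Jag1, a ligand of the other class, had 27.7, 3.85 and 36.4 RPM at D0 and 11.9, 27.5 and 28.3 at D6, a difference of -0.04 ± 0.85 (adjusted p = 0.984), or -0.54 ± 0.65 without library 56.

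The Id genes did not move together. Id1 had 195, 150 and 216 RPM at D0 and 33.8, 1.25 and 13.0 at D6, with every D6 library under every D0 library. The difference was -3.57 ± 0.81 on the log2 scale, 11.9-fold lower (adjusted p = 0.0147), was -3.04 ± 0.49 without library 38 and lost the call only without library 39 (adjusted p = 0.0759). Id2 had 421, 561 and 546 RPM at D0 and 402, 370 and 257 at D6. Its groups did not overlap, and the difference of -0.62 ± 0.26 did not pass (adjusted p = 0.156). Id3 had 160, 43.4 and 195 RPM at D0 and 195, 85.3 and 215 at D6, with overlap, a difference of 0.29 ± 0.51 (adjusted p = 0.802), which was -0.13 ± 0.37 without library 56 and 0.60 ± 0.53 without library 38.

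**Figure D1:**
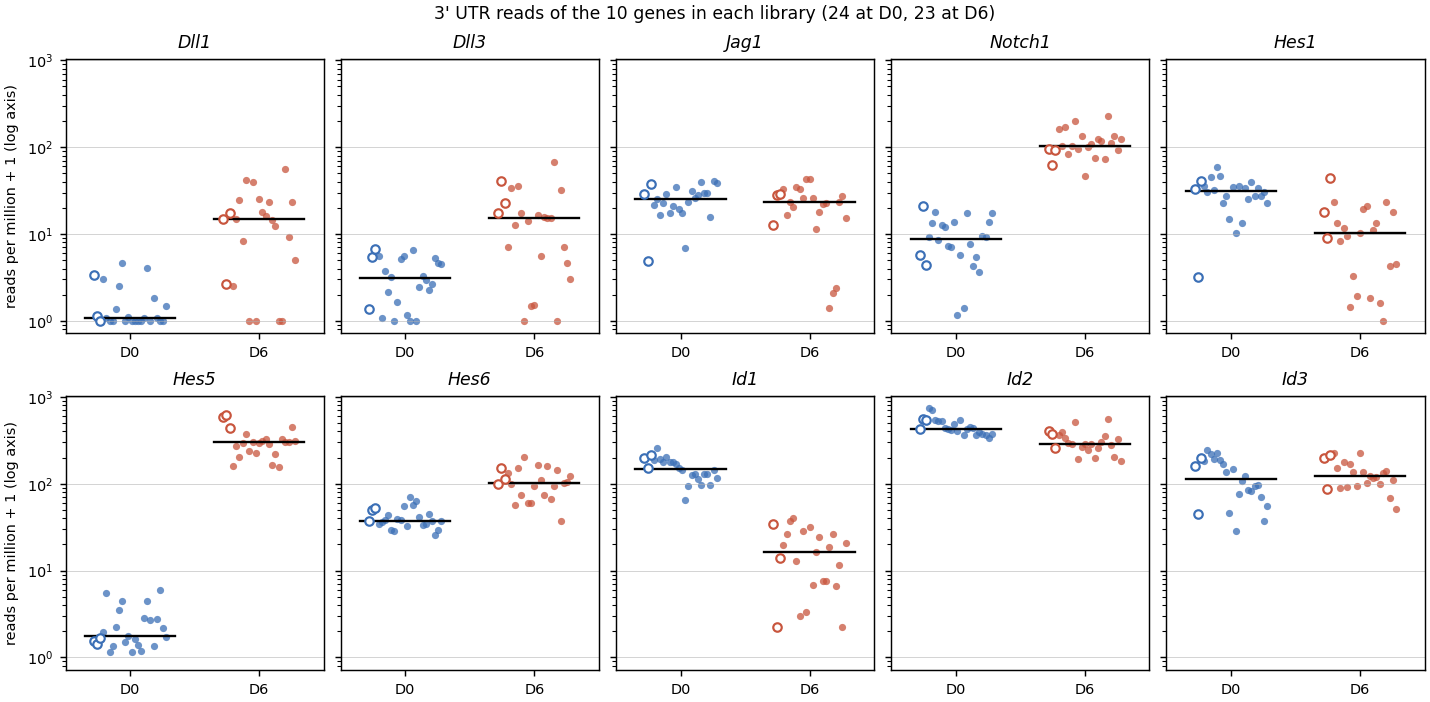
3′ UTR RPM plus 1 (log axis) of each gene in each library at D0 (blue) and D6 (red). Open circles are the libraries without 4sU, filled circles all others, and black lines the medians of all libraries of a state; for Hes5, Notch1 and Id1 no library of one state overlaps the other state.

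The same difference was then read at each of the 8 points that both states share (4 points in 2 assays), in 1 edgeR fit over all 47 libraries and 20699 transcripts. These points include the libraries of the test above, and at all points but 0 h of the anabolic assay the states also differ in the 4sU dose. Of all transcripts, 10.2, 11, 10.4 and 11.8% were called at the 4 points of the anabolic assay and 10.1, 9.56, 19.6 and 10.8% at those of the catabolic assay. Of the 80 tests on the 10 genes, 33 were called, and 30 to 34 when 1 of the 47 libraries was left out. At the third point of the catabolic assay, the median of all transcripts was at a log2 of -0.82, and at 9 h of the anabolic assay it was at -0.12, so that values there are relative to a shifted median.

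Hes5 and Notch1 were higher and Id1 lower at all 8 points. The fitted log2 difference of Hes5 ranged from 6.62 to 9.88, that of Notch1 from 3.12 to 5.71 and that of Id1 from -3.59 to -2.76. Over all libraries, Notch1 ranged from 0.170 to 20.2 RPM at D0 and from 45.9 to 230 at D6. Id1 ranged from 64.2 to 257 at D0 and from 1.22 to 39.7 at D6. Without library 56, the difference of Notch1 at 0 h of the anabolic assay went from 3.12 to 4.31, and without library 26 that at 0 h of the catabolic assay from 5.71 to 8.41. The call of Id1 was lost without library 7 at 0 h of the catabolic assay and without library 15 at the third point (adjusted p = 0.0646 and 0.121). For these genes and Hes5, the 24 libraries of D0 and the 23 of D6 did not overlap. How many of all transcripts separate in this way, or are called at all 8 points, was not counted.

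Hes6 was above 0 at all 8 points (0.72 to 2.11) and called at 4 of them, the first 3 of the anabolic assay and 9 h of the catabolic assay. The calls at the first and the second point of the anabolic assay were each lost without most of the 47 libraries taken 1 at a time. The first was at 1.46 without library 56 and 1.22 without library 38 (adjusted p = 0.108 and 0.166). At the third point of the catabolic assay, where D6 had 2 libraries, Hes6 was at 1.23 and not called. Without library 14 it was at -0.07, and without library 15 it was called at 1.88 (adjusted p = 0.00626), where 31.1% of all transcripts were called. Dll1 was above 0 at all 8 points and called at 1, 0 h of the catabolic assay. There it had no read in any of the 3 libraries of D0 and 17.1, 15.3 and 22.3 RPM at D6. Against a floor of 3 reads over the D0 group, this is at least 104-fold higher at D6. The call was lost without any 1 library of D0 (adjusted p = 0.0948 to 0.101). Dll3 was above 0 at all 8 points (0.04 to 4.66) and called at none, but below 0 at 9 h of the anabolic assay without library 52 and at the third point of the catabolic assay without library 15. At 9 h of the catabolic assay, where it was at 0.04, its sign turned without many of the libraries, among them 16, 35 and 36. Dll1 was also below 0 at the third point without library 15. Both ligands scattered widely at D6, from 0 to 55 RPM for Dll1 and from 0 to 67.2 for Dll3, and 17 of 23 D6 libraries for Dll1 and 16 for Dll3 exceeded the highest library of D0.

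Hes1 was below 0 at all 8 points (-2.76 to -0.11) and called at none by the fit to all libraries. At 0 h of the anabolic assay it was above 0 without library 38, 55 or 57 and at -0.65 without library 56, and at 0 h of the catabolic assay it was at -1.34 without library 26. At the third point of the catabolic assay it was at -1.53, and it was called lower without library 15 (adjusted p = 0.0121, with 31.1% of all transcripts called), which left 1 D6 library with no read of Hes1. Its median over the libraries was 3.31 times higher at D0 than at D6, and 5 of the 23 D6 libraries lay below the lowest of D0. Id2 was called lower at 3 points (the second point and 9 h of the anabolic assay and 0 h of the catabolic assay), with log2 differences of -0.87, -0.84 and -0.84. Each call was lost without some library of its point, the first without 42, 58 or 59, the second without 52 or 72 and the last without 9 or 26 (adjusted p = 0.095 and 0.202). Over all libraries Id2 ranged from 334 to 741 RPM at D0 and from 181 to 561 at D6, and 15 of the 23 D6 libraries lay under the lowest of D0. At 9 h of the catabolic assay it was at -0.59 and not called, and it was called without library 17 (-0.89, adjusted p = 0.0323). At the third point of the catabolic assay it was at 0.16, and at -0.43 without library 14. Id3 was called at no point (-0.48 to 0.59), went from 0.31 to -0.11 at 0 h of the anabolic assay without library 56, and no D6 library lay outside the range of D0. Jag1 was called at 1 point only, as lower at the third point of the catabolic assay (-4.64 ± 1.26, adjusted p = 0.00582), where the D6 libraries held 2 and 4 reads of it (adjusted p = 0.0547 without library 14). At the other points it lay between -0.92 and 0.59, and at 0 h of the catabolic assay it went from 0.23 to -0.10 without library 26.

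**Figure D2:**
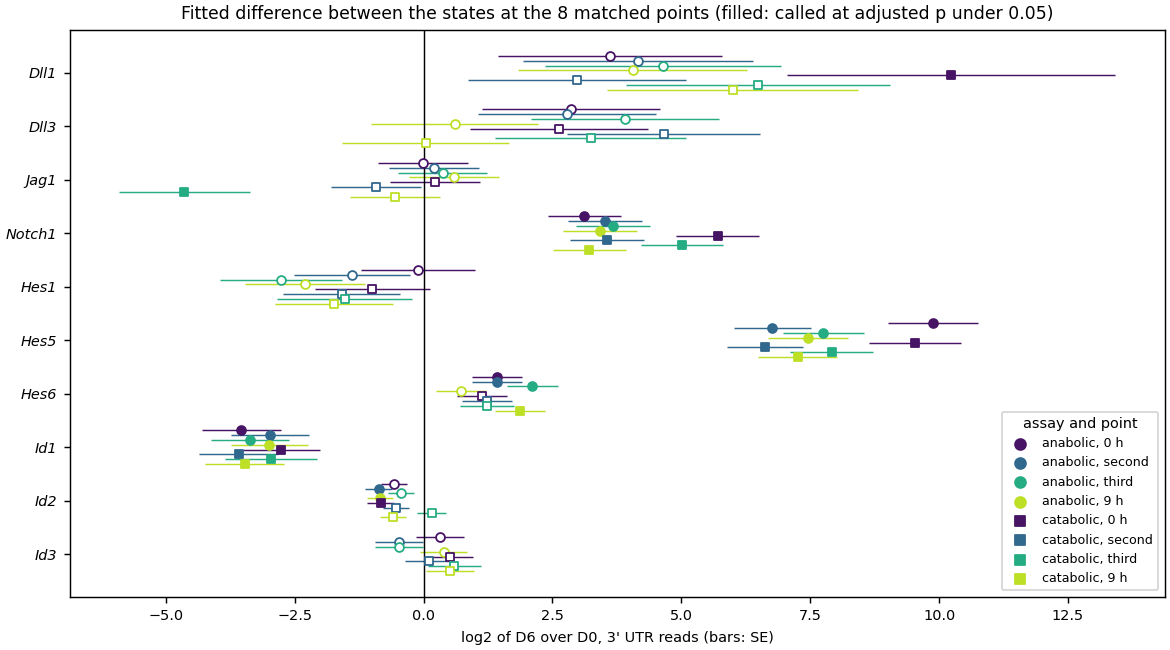
Fitted log2 difference in 3′ UTR reads between D6 and D0 for each gene at the 8 matched points (circles, anabolic assay; squares, catabolic assay; colors, collection points; bars, SE). Filled symbols were called at an adjusted p under 0.05; Hes5 and Notch1 lie to the right of 0 and Id1 to the left at every point.

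Whether 15 h of 4sU went with a change in the level of the genes was asked by comparing the catabolic libraries at 0 h with those without 4sU. None of the genes was called in either state by edgeR. At D0, 8 of the 10 genes passed the filter on low counts (Dll1 and Hes5 did not), and 0% of 15494 transcripts were called, with 319 at an unadjusted p under 0.05 and 3 called by DESeq2. Among them, Id1 was at -0.91 ± 0.34 (adjusted p = 1). At D6, 0.0512% of 15615 transcripts were called. There Hes5 was lower after 15 h in every library, with 313, 327 and 289 RPM against 581, 611 and 432 without 4sU. The difference was -0.76 ± 0.19 on the log2 scale, which did not pass by edgeR (adjusted p = 0.244) and did by DESeq2 (adjusted p = 0.00137), which called 248 of the 15615 transcripts (1.59%). Over all D6 libraries, 1 labeled library, at 9 h of the catabolic assay, also exceeded the lowest of these (451 RPM). The 911-fold difference above was measured without 4sU.

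The conversion rate, the percent of covered T positions read as C, was used for labeling. Because the dose differed, rates are compared between the states only relative to the rate of the same transcript after 15 h in the same state. The comparisons of uptake and of reads share the libraries without 4sU, and those of loss and of the reached share use the same libraries of 0 h of the catabolic assay. Of 14426 transcripts with enough covered T positions, 65.6% at D0 and 72.3% at D6 had a changed rate after 9 h of 4sU against none. Of the 10 genes, 4 were called at D0 (Dll3, Notch1, Id2 and Id3) and 9 at D6 (all but Jag1), each with a higher rate.

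The Id genes were among the best covered. Id2 had 0.201, 0.0411 and 0.117% conversions without 4sU at D0 and 1.32, 1.48 and 1.69% after 9 h, a log2 difference of 3.64 ± 0.54 (edgeR, adjusted p = 2.91e-07). At D6 it went from 0.0605, 0.104 and 0.0782% to 5.97, 5.59 and 3.51% (5.96 ± 0.61, adjusted p = 1.04e-12). Id3 rose from 0.00599, 0.0192 and 0.0782% to 1.28, 1.05 and 1.41% at D0 (5.10 ± 1.04, adjusted p = 0.0001), and at D6 to 3.96, 5.78 and 4.68% (8.96 ± 1.25, adjusted p = 1.93e-08). In all of these comparisons the groups were apart.

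Id1 at D0 differed in its background. Without 4sU, its rate was already 0.423, 0.878 and 0.454%, from 32468 to 70653 covered T positions per library, and after 9 h it was 1.51, 1.33 and 2.16%. The groups did not overlap, but the difference of 1.51 ± 0.83 was not called (adjusted p = 0.0984). At D6, Id1 had 1, 0 and 1 conversion without 4sU and 3.52, 1.96 and 4.89% after 9 h (7.61 ± 1.34, adjusted p = 3.84e-06).

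Hes5 at D6 rose from 0.00277, 0.0873 and 0.00314% without 4sU to 6.68, 2.49 and 2.68% after 9 h (6.98 ± 1.37, adjusted p = 2.51e-05). At D0 its label could not be read, with at most 1482 covered T positions in a library. Hes6 at D6 reached 3.01, 4.45 and 2.50% (4.37 ± 1.27, adjusted p = 0.00236), and at D0 1.13, 1.44 and 2.24% against a background of 0.298, 0.787 and 0.361%, which was not called (1.74 ± 1.13, adjusted p = 0.161). Hes1 at D0 reached 0.997, 0.928 and 1.04%, also not called (2.02 ± 1.68, adjusted p = 0.269), against 0.00983, 0.349 and 0.398%. At D6, its call of uptake rested on library 53, which held 59 covered T positions, and was lost without it (0.89 ± 2.06, adjusted p = 0.73), as it was without library 37 or 38 (adjusted p = 0.0756 and 0.0651).

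Notch1 at D6 reached 3.19, 1.23 and 5.96% (5.15 ± 1.58, adjusted p = 0.00377), and at D0 1.60, 0.146 and 3.01% (4.73 ± 1.70, adjusted p = 0.0147, lost without library 56 or 72). Dll3 at D0 had no conversion among 2884 covered T positions without 4sU and 136 of 3990 after 9 h. With a floor of 3 conversions over the group this is at least 32.8-fold higher. Dll1 at D6 reached 4.32 and 4.60% in the 2 libraries with reads (3.98 ± 1.82, adjusted p = 0.045), a call that was lost without library 37, 38, 52 or 54 (adjusted p = 0.0793 to 0.129), with no coverage minimum (0.0678) and by DESeq2 (0.274). Jag1 at D6 reached 4.75, 4.72 and 5.36% and was not called (2.87 ± 1.63, adjusted p = 0.105) with 1 library without 4sU, 38, at 2.04% and the other 2 at 0. Without that library it was called (adjusted p = 0.00127), as it was by DESeq2 with all libraries (adjusted p = 0.0485).

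The share of label reached at 9 h, the rate after 9 h of uptake over the rate after 15 h, was compared between the states. edgeR called 0% of 14426 transcripts, with 831 at an unadjusted p under 0.05, DESeq2 called 70, limma on background-subtracted rates 159, and none of the 9 genes with a value was among these. For Dll1 there was no value, since no T position was covered at 0 h of the catabolic assay at D0. Id2 reached 106% ± 8.2 (SE) of its 15 h rate at D0 and 91.2% ± 17.1 at D6, and the log2 difference of the shares was -0.21 ± 0.69. Id3 reached 128% ± 34.6 and 89.6% ± 10.7 (-0.51 ± 1.22), and Hes5 at D6 69.2% ± 24.3. For Hes5 no difference is given, since its D0 rate after 15 h (0.877%) was below that without 4sU (1.62%). Over all transcripts covered in each library, the median was 91.4% at D0 and 76.0% at D6.

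**Figure D3:**
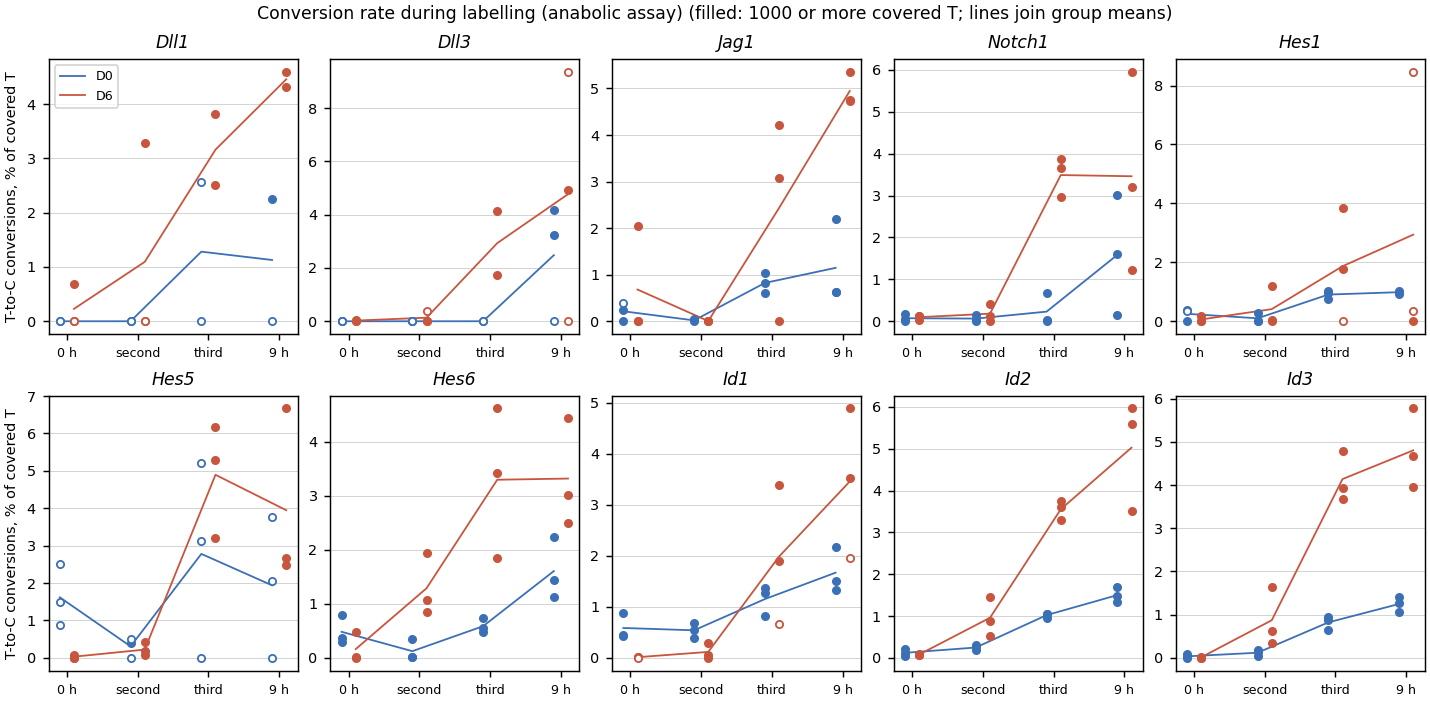
T-to-C conversions as a percent of covered T positions at the 4 points of the anabolic assay, 1 point per library, at D0 (blue, 20 µM 4sU) and D6 (red, 500 µM); lines join group means and open circles have under 1000 covered T positions. Id2 and Id3 are highest at 9 h in both states by their group means, and almost all D0 points of Hes5 are open circles.

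Loss of label was tested as the rate 9 h after 4sU was removed against that at 0 h. Of all transcripts, 21% changed at D0 and 34.7% at D6. Of the 9 genes that could be tested at D0, 4 were called (Dll3, Notch1, Id2 and Id3), and of the 10 at D6, 7 were called (Hes1, Hes5, Dll1, Jag1, Id1, Id2 and Id3), all with a lower rate at 9 h.

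Id2 was called in both states. At D0 it fell from 1.37, 1.51 and 1.38% at 0 h over 1.10, 1.09 and 1.23% at the second point and 0.390, 0.316 and 0.373% at the third to 0.128, 0.0670 and 0.0986% at 9 h. From the third point on, all libraries lay below those of the earlier points. The log2 difference at 9 h was -3.86 ± 0.55 (edgeR, adjusted p = 1.15e-06), and 6.90% ± 1.26 (SE) of the 15 h rate was left, against a median of 17.4% over all transcripts. The mean rate at 9 h (0.0978%) was not above that without 4sU (0.120%). With this background subtracted, the share left was -1.70%, against a median of 10.0%. At D6 it fell from 5.04, 6.71 and 4.79% over 3.87, 4.30 and 1.93% and 0.224 and 0.0712% to 0.319, 0.971 and 0.309%. Here the 9 h difference was -3.37 ± 0.54 (adjusted p = 7.01e-06), with 9.67% ± 4.11 left, against a median of 12.6% over all transcripts covered in each library, and the rate at the third point was lower than at 9 h in each library.

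The third point was tested after the data had been seen. None of the 4 genes called at D0 at 9 h was called there, and of the 7 at D6 Id1 and Id2 were. There Id2 at D6 was at -5.21 ± 0.70 relative to 0 h (adjusted p = 1.2e-06) and at D0 at -1.98 ± 0.51 (adjusted p = 0.336), where 1.67% and 0.0139% of all transcripts were called. The difference between the states was -3.23 ± 0.78 and was not called by edgeR (adjusted p = 0.106). Of its 15 h rate, 25.4% ± 1.8 was left at D0 and 2.68% ± 1.42 at D6, from 2 libraries, with medians over all transcripts of 70.1% and 35%.

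Id3 at D0 fell from 1.03, 0.516 and 1.37% to 0.140, 0.129 and 0.0772% (-3.08 ± 0.95, adjusted p = 0.0211, and -3.38 without library 26), a call that was lost without any 1 library of 9 h (adjusted p = 0.0657 to 0.0753). At D6 it fell from 5.80, 4.98 and 5.31% to 0.0400, 0.0152 and 0.286% (-5.63 ± 1.07, adjusted p = 0.000158), with 2.12% ± 1.62 of the 15 h rate left. In both states every library of 9 h lay below every library of 0 h, and the difference between the states was -2.55 ± 1.28 (adjusted p = 0.481). Id1 at D0 went from 1.23, 1.14 and 1.64% to 0.627, 0.622 and 0.592% at 9 h, near its rate without 4sU (0.423 to 0.878%), and was not called (-1.12 ± 0.83, adjusted p = 0.289). With the background subtracted, limma called it (-4.87, adjusted p = 0.0346). At D6, Id1 had 0.0711, 4.63 and 9.09% at 0 h and 1.19, 0 and 0.803% at 9 h, with overlap, and was called by edgeR (-2.51 ± 0.90, adjusted p = 0.0288), though not without library 9, 17 or 18 (adjusted p = 0.0796 to 0.168) or by limma on background-subtracted rates (0.18).

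Hes5 at D6 lost its label steadily, from 5.27, 5.51 and 6.33% at 0 h over 5.01, 4.00 and 2.65% and 2.29 and 1.40% to 0.249, 0.173 and 0.0362% at 9 h. The difference at 9 h was -5.21 ± 1.26 (adjusted p = 0.00248), with 2.68% ± 1.10 of the 15 h rate left. Hes6 at D6 had a larger share of its label left than Hes5, though these genes were not compared by a test. It went from 4.47, 5.07 and 6.17% to 1.01, 0.832 and 1.42% at D6, with no overlap and a difference of -2.26 ± 1.15 that was not called (adjusted p = 0.101), and 20.8% ± 3.9 was left. At D0, its rates of 0.214, 0.994 and 2.54% at 0 h and 0.0191, 1.67 and 0.243% at 9 h overlapped (-0.96 ± 1.12, adjusted p = 0.504).

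Hes1 had an unusual course at D0. At 0 h, after 15 h of 4sU, it had 1, 0 and 1 conversion among 5619, 1024 and 6191 covered T positions, whereas it had 1.2, 0.784 and 0.397% at the second point, 0.532, 0.711 and 0.224% at the third and 0.0507, 0 and 0% at 9 h. All libraries of both middle points lay above all libraries of 0 h and 9 h. After 9 h of uptake, Hes1 had about 1% conversions in each D0 library. The second point against 0 h, tested after this was seen, was at 5.59 ± 2.06 and was not called (adjusted p = 0.998). There 0% of 14426 transcripts were called by edgeR, with 598 at an unadjusted p under 0.05. From 0 h to 9 h, Hes1 at D0 was at 0.21 ± 1.93 (adjusted p = 0.951), with 0 h at almost no conversions. At D6, Hes1 had 4.10, 3.40 and 2.68% at 0 h, and 2.42, 0.0664 and 0.901% at the second point. It had no conversion at the third point, from 1 library with reads, and none among 4064 covered T positions at 9 h. With a floor of 3 conversions over the group, the rate at 9 h was at least 51.5-fold lower than at 0 h (adjusted p = 0.00817).

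Notch1 at D0 was called on few counts. At 0 h its libraries held 30, 692 and 50 covered T positions, and the rate of 4.48% in library 26 carried the call (-6.39 ± 1.83, adjusted p = 0.0153, and 0.195 without this library). It was also lost without library 35 or 36 (adjusted p = 0.0795 and 0.065) and by limma on background-subtracted rates (0.0652). At D6 it was better covered, with 5.34, 6.44 and 8.24% at 0 h and 0.933, 0.726 and 0.433% at 9 h. These groups were apart, and the difference of -3.26 ± 1.44 was not called by edgeR (adjusted p = 0.065) and was by DESeq2 (adjusted p = 0.0253). Of the ligands at D6, Jag1 went from 8.78, 6.83 and 8.74% to 0.177, 0 and 0.328% (-5.58 ± 1.86, adjusted p = 0.0201), and Dll1 from 6.94, 6.20 and 4.80% to 0.471, 0 and 0% (-5.08 ± 1.85, adjusted p = 0.0312). In both, every library of 9 h was below every library of 0 h. The call of Jag1 was lost without library 16 or 17, and that of Dll1 without 7, 17 or 18 and by DESeq2 (adjusted p = 0.272). Dll3 at D6 was not called (-3.10 ± 1.77, adjusted p = 0.14), and at D0 it had 28 conversions among 985 covered T positions at 0 h and none among 4481 at 9 h, at least 42.5-fold lower (adjusted p = 0.0128). The Dll3 call at D0 was lost without any 1 library of 9 h and by limma (adjusted p = 0.101).

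**Figure D4:**
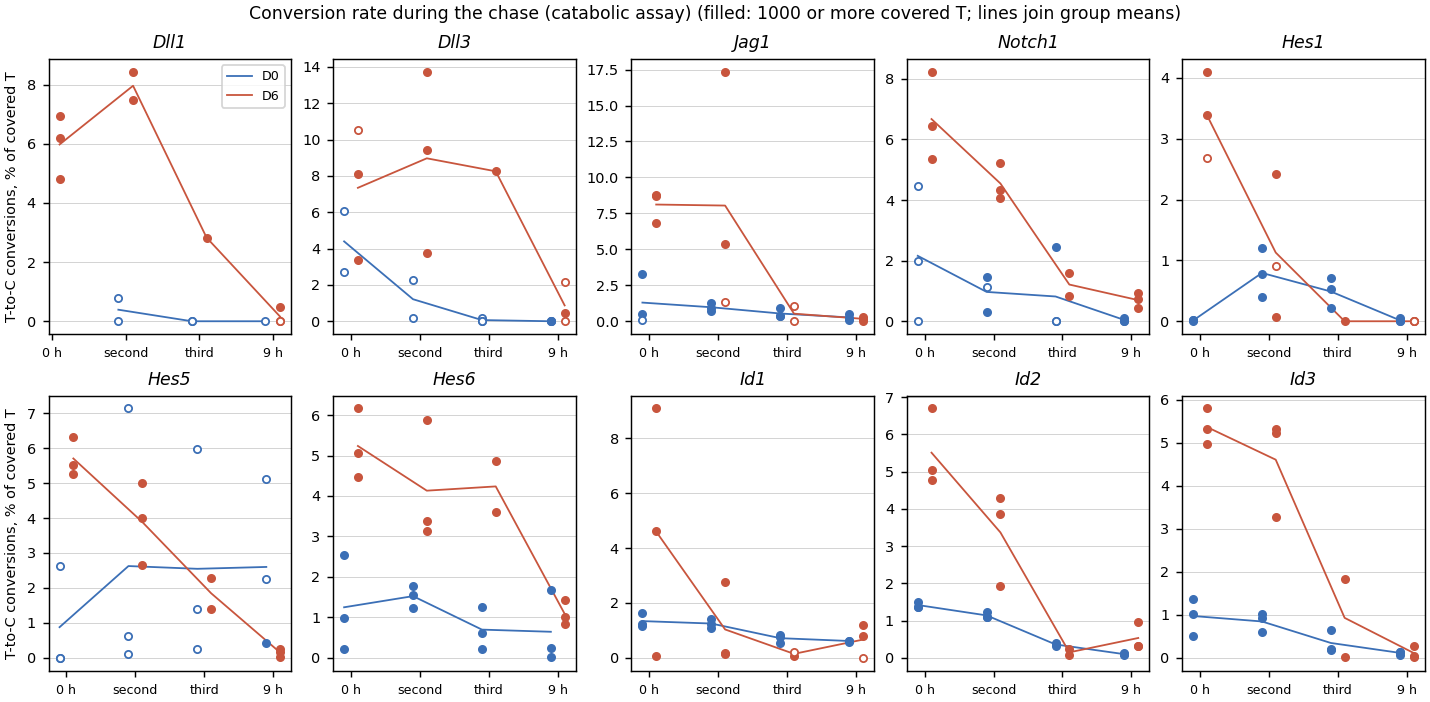
T-to-C conversions as a percent of covered T positions at the 4 points of the catabolic assay, 1 point per library, at D0 (blue) and D6 (red); lines join group means and open circles have under 1000 covered T positions. Hes1 at D0 is near 0 at 0 h and higher at both middle points, whereas Id2 falls in both states.

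The loss of label was then compared between the states. edgeR called 0.0208% of 14426 transcripts at 9 h, 3 in all, and none of the 9 genes that could be tested. DESeq2 called 331 transcripts and limma on background-subtracted rates 12, again with none of these genes. Hes5 was at -6.14 ± 1.90 (adjusted p = 0.266), but at D0 its libraries of 0 h held 11, 76 and 58 covered T positions, with a rate below that without 4sU. For Hes1 the adjusted p was 0.284, with almost no conversions at 0 h of D0 and none at 9 h of D6, so that no size is given. Id2 was at 0.49 ± 0.69 (adjusted p = 0.924), with a 9 h rate at D0 (0.0978%) not above that without 4sU (0.120%). This background limits the loss that could be seen at D0. The median over all transcripts was -0.65.

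Half-lives were estimated as the study did, from an exponential fit to the rates over the 15 h rate, with R squared over 0.6, and depend on which hours are used for the middle points. Of 40 possible fits (10 genes, 2 states, decay and uptake), 16 were kept. For comparison, 15.6% of 14426 transcripts had a kept decay fit at D0 and 16.9% at D6, and 22.1% and 10.2% a kept uptake fit. Of the 16 fits, 10 were of decay and 6 of uptake. With the hours of the design, decay half-lives at D0 and D6 were 229 ± 33.1 and 168 ± 34.3 min (SE) for Id2 and 276 ± 77.6 and 225 ± 56 min for Id3. With the hours of the sample labels, those of Id2 were 115 ± 11.7 and 67.6 ± 15.4 min and those of Id3 151 ± 47.7 and 114 ± 27.7 min. With 0 and 9 h only, both sets of hours give the same time. Decay half-lives at D0 and D6 were then 140 ± 16.6 and 160 ± 52.3 min for Id2. Those of Id3 were 176 ± 113 and 97.1 ± 35.7 min. These values do not order the states for Id2, since its D0 rate at 9 h (0.0978%) was not above its background (0.120%). At D6 its rate at 9 h was 0.533%, against a background of 0.0808%. The difference between the states was not tested on the half-lives.

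Decay half-lives in 1 state only, with the hours of the design, were 105 ± 30.1 min for Hes1, 213 ± 34.8 min for Hes5, 409 ± 106 min for Hes6 and 206 ± 32.7 min for Notch1 at D6, and 506 ± 81.8 min for Id1 and 87.7 ± 32.6 min for Dll3 at D0. With the hours of the sample labels, these were 37.4, 109, 285 and 92.7 min, and 362 and 32.1 min. With 0 and 9 h only, the D6 values were 103 ± 38.7 min for Hes5, 238 ± 46.6 min for Hes6 and 166 ± 57.1 min for Notch1, and no fit was kept for Hes1 or for Dll3 at D0. Hes6 was the longest of these D6 values under all 3 settings. Over all transcripts with a kept decay fit, the median half-life was 281 min (D0) and 221 min (D6). The value of Id1 at D0 depended on its background, since with 0 and 9 h only it was 480 ± 96.9 min and 114 ± 119 min once the background was subtracted. Uptake half-lives were kept for Id2 and Id3 in both states (at D0 217 ± 43.8 and 177 ± 58.5 min, at D6 260 ± 44.8 and 237 ± 43.2 min), and for Hes6 and Dll1 at D6 (329 ± 54.7 and 354 ± 77.1 min) with the hours of the design. With the hours of the sample labels they were 115 and 95.7 min at D0 and 141 and 117 min at D6 for Id2 and Id3 and 209 min for Dll1, and no fit was kept for Hes6. With 0 and 9 h only, no uptake fit was kept at D0, and the D6 values were 154, 166, 273 and 373 min for Id2, Id3, Dll1 and Hes6.

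Among the other genes of the Notch pathway, 45 of 46 listed genes had a row and 34 passed the filter on low counts in the libraries without 4sU. Of these, 5 were higher at D6, 1 was lower and 28 did not pass, with a median log2 difference of 0.59. Over all transcripts, 7.74% were higher and 5.4% lower, with a median of -0.04. Those that rose were Dtx1 (0 to 0.197 RPM at D0 and 8.52 to 39.8 at D6), Dtx4 (2.21 ± 0.33), both Deltex ubiquitin ligases that act on Notch, Dner (7.21 ± 1.02), a neuronal transmembrane protein related to Delta, Nrarp (2.73 ± 0.81), a target that feeds back on the Notch complex, and Maml3 (1.99 ± 0.57), a coactivator of the family that works with RBPJ. Dner had 0.497 ± 0.697 RPM (SD, n = 3) at D0 and 82.4 ± 22.8 at D6. Neurl1a, a ubiquitin ligase of ligands, fell from between 3.14 and 33.4 RPM at D0 to between 0 and 0.101 at D6 (adjusted p = 0.0173). No fold is given for Dtx1 and Neurl1a, whose lower group had few reads. Another 2 genes outside the naming rule are given for their role, after their values were seen. Rbpj itself was at 0.60 ± 0.43 (adjusted p = 0.452), and Hey1, another target, was at 2.18 ± 0.65 (adjusted p = 0.0503). Neither was called.

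Among BMP, Smad and E protein genes, all 26 listed had a row and 20 passed the filter. Of these, 5 were higher, 1 was lower and 14 did not pass, with a median of 0.93, to be read against the same 7.74%, 5.4% and -0.04 over all transcripts. Of the E proteins that Id proteins bind, Tcf4 rose by 2.07 ± 0.24 (137 ± 17.3 to 595 ± 26.6 RPM, SD, n = 3) and Tcf12 by 1.58 ± 0.29, while Tcf3, named after its value was seen, was at -0.42 ± 0.40 and was not called (adjusted p = 0.606). The receptors Bmpr2 (2.02 ± 0.37) and Acvr2b (1.00 ± 0.25) rose. The ligand Bmp7 had no read in the D0 libraries and was at least 216-fold higher at D6 against a floor of 3 reads over the group, and Fst, a secreted antagonist, fell by 6.26 ± 1.31. Id4, the remaining Id gene, named after its value was seen, was at 1.05 ± 0.74 and was not called (adjusted p = 0.446).

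The genes whose level followed most closely those of a gene of each group were searched among 7898 genes over all 47 libraries, which differ in state, dose and depth. Pearson's r on the log2 scale was highest for Prkci (0.886) and Fermt2 (0.885) with Hes1, for Anks1b (0.843) and Psd3 (0.836) with Dll1, and for Tars (0.910) and Klhl21 (0.896) with Id1. These are descriptions of the libraries and carry no test.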

How the data were processed

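RNA from P19 cells was measured by SLAM-seq in 47 libraries. The authors counted reads and T-to-C conversions per 3′ UTR interval with SLAMdunk 0.3.3 on mm10, per the file headers, and the deposited columns of counts (reads, covered T positions and conversions on covered T positions) were used, while the deposited conversion fraction and the deposited CPM were not. No multimapped reads were counted in the files, and reads carry no molecular identifiers. Of 39419 listed intervals, 30432 are distinct. Each gene was represented by its mRNA transcript with the most covered T positions.

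Read counts were normalized by TMM and tested with the quasi-likelihood test of edgeR 4.0.16 (R 4.3.3) after its filter on low counts. Conversions were tested by the same method with covered T positions as offset, for the 14426 transcripts whose covered T positions averaged 1000 or more. P-values were adjusted after Benjamini-Hochberg over all transcripts tested, at a threshold of 0.05. The SE printed with a log2 difference from edgeR is its absolute value over the square root of the F statistic of the test. Tests were run on simulated data before use. Half-lives were fitted by least squares in scipy 1.17.1 to rates over the mean 15 h rate of the same state and kept with R squared over 0.6, up to 5000 min. Floors of 3 counts cover counting error only. DESeq2 1.42.0, limma 3.58.1, other filters and coverage minimums, other hours and the omission of each library were tried as alternatives.

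The 10 genes and the gene lists were chosen with earlier results of these data known. By rule, all 10 genes were named, up to 6 called genes with the largest change from each of 2 lists, and the 2 nearest genes of Hes1, Dll1 and Id1 by Pearson's r of log2(RPM + 1), with RPM the reads at a common normalized library size, among genes averaging 10 RPM or more.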

Additional observations from a re-analysis of the deposited data

How the results depend on the processing

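No paired analysis was possible because the labels give no pairing of libraries between groups. All 10 genes were tracked in each comparison, apart from Dll1 where it had no covered T position and Dll1 and Hes5 where they did not pass the filter on low counts (15 h of 4sU at D0). Depth limits the conversion results, since Dll1, Dll3, Notch1, Jag1, Hes1 and Hes5 at D0 and Hes1, Dll1, Dll3, Jag1 and Id1 at D6 had libraries with few or no covered T positions, and a difference that was not called is not shown to be absent. Among the alternatives that kept all libraries, 287 of the genes' values kept direction and call, 15 lost the call, 6 gained it and 9 turned direction.

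Those that turned direction, none of them called before or after, were Jag1 reads between the states at 0.022 (1 transcript per cluster of overlapping 3′ UTRs), Hes1 loss at D0 at -0.017 (DESeq2), Dll3 loss at D6 at 0.0039 (the third point), the reached share of Dll3 at -3.0 and of Id1 at 0.75 and the loss difference of Id1 at 2.19 (limma, background subtracted), and the loss difference at the third point, chosen after seeing the data, of Hes6 at 0.54, Notch1 at -0.83 and Id2 at -3.23. The number of genes called moved to 1 for 15 h of 4sU at D6 with DESeq2 (Hes5), to 0 for loss at D0 and 2 for loss at D6 at the third point, and to 1 for the loss difference as a slope with the hours of the labels (Hes5, adjusted p = 0.0266), where 0.749% of 14426 transcripts were called against 0.0139% with the hours of the design, and where Hes5 rests on 11, 76 and 58 covered T positions at 0 h of D0. Smaller moves were from 4 to 5 for reads between the states with DESeq2 (Dll3 gained), from 9 to 8 for uptake at D6 with no coverage minimum (Dll1 lost), and with limma from 4 to 3 for loss at D0 (Dll3 and Notch1 lost, Id1 gained) and from 7 to 6 for loss at D6 (Id1 lost). DESeq2 kept the number but exchanged Dll1 for Jag1 in uptake at D6 and Dll1 for Notch1 in loss at D6. At a coverage minimum of 5000, Dll1 and Dll3 were no longer tested, and 3 genes were called for uptake at D0, 7 for uptake at D6, 3 for loss at D0 and 6 for loss at D6. Half-lives kept moved to 35 with no minimum of R squared and to 28 with 0 and 9 h only and no minimum. The cause was not tested.

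Leaving out 1 library at a time, 547 values kept direction and call, 35 lost the call, 1 gained it and 34 turned direction. The genes called ranged from 1 to 4 for reads between the states (7.41 to 13.5% of all transcripts), 0 to 0 for 15 h of 4sU in either state (0% at D0 and 0 to 0.0184% at D6), 3 to 4 for uptake at D0 (51 to 61.7%), 7 to 9 for uptake at D6 (60.7 to 72.3%), 1 to 4 for loss at D0 (2.84 to 15.1%, against 21% with all libraries), 4 to 7 for loss at D6 (16.9 to 30%, against 34.7%) and 0 to 0 for the reached share (0%) and the loss difference (0 to 0.0555%). At the matched points, left out after the data were seen and with the filter and trended dispersion of all libraries, 30 to 34 of 80 were called. Values that turned ranged, for reads between the states, from -1.02 to 0.39 for Hes1, -0.13 to 0.66 for Id3 and -0.54 to 0.47 for Jag1. For 15 h of 4sU they ranged from -0.44 to 0.63 for Hes1 and -0.030 to 0.48 for Hes6 at D0, and from -1.20 to 0.12 for Hes1, -0.62 to 1.07 for Id1 and -0.33 to 0.22 for Hes6 at D6. Uptake of Hes5 at D0 ranged from -0.73 to 0.94. The reached share ranged from -0.67 to 0.65 for Dll3, -1.38 to 0.72 for Notch1, -1.25 to 0.28 for Id1 and -2.60 to 0.35 for Jag1. Loss at D0 ranged from -3.04 to 0.75 for Hes1, -0.11 to 11.87 for Hes5 and -3.19 to 0.073 for Hes6, and the loss difference from -0.28 to 0.76 for Id2 and -2.34 to 0.93 for Hes6.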
